A study of Mus musculus with 6 samples.

Results

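The locus of Cdkn2a and Cdkn2b was examined as a window of 75 kb on chromosome 4 of mm9, from 88900000 to 88975000, in 3 peak lists from SVZ NSC monolayer cultures. A peak belonged to the locus if it overlapped this window by at least 1 bp. The window held 8 of the 43384 peaks, of which 2 were H3K27me3 peaks of proliferating cultures, 1 was an H3K27me3 peak of cultures 30 h after differentiation began, and 5 were H3K4me3 peaks of proliferating cultures. The cells came from the subventricular zone (SVZ) of early postnatal C57BL/6 mice, carried no genetic change named in the labels and were used at passages 5 to 7. In differentiation medium the growth factors EGF and bFGF were withdrawn and the serum was lowered. Only the H3K4me3 culture carries the word ventral in its label, while its title shares the code N5 with the proliferating H3K27me3 library, so whether the 2 marks come from the same cells is unclear. H3K4me3 was not measured at 30 h. Each mark and time is 1 library, so no difference below could be tested against the spread between libraries.

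Cdkn2a, also called Ink4a/Arf, gives rise to 2 unrelated proteins from separate first exons. p16 (Ink4a) inhibits the cyclin D kinases CDK4 and CDK6 and so keeps the RB protein active, and p19 (Arf) binds MDM2 and thereby stabilizes p53. The neighbouring gene Cdkn2b encodes p15, a further inhibitor of the same kinases. In cultured stem cells the locus is a well known target of Polycomb repressive complexes, whose member EZH2 places H3K27me3, while H3K4me3 is typical of the start sites of active or poised genes. The study examined EZH2 and H3K27me3 at Ink4a/Arf in the context of SVZ NSC proliferation.

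RefSeq lists 3 start sites for the 2 genes, all on the minus strand of chromosome 4. Toward higher coordinates, those of Cdkn2a come first and that of Cdkn2b last. The lower Cdkn2a start is called Ink4a here and the upper one Arf, on grounds given below. The lower end of the long noncoding RNA gene Gm12610 lies between Cdkn2a and Cdkn2b. The 250 bases before each start are shown as the promoters of the 2 genes. Marks of this locus can also lie elsewhere, such as at Gm12610, whose promoter is not shown. The sequences were taken from RefSeq on GRCm38.p6, a later build than the mm9 of the peaks. Their positions thus cannot be set beside the peak positions, and no peak was assigned to a start site. Capitals mark CG dinucleotides. The positions on GRCm38.p6 are chr4:89282193-89282442 for Ink4a, chr4:89294620-89294869 for Arf and chr4:89311033-89311282 for Cdkn2b.
Cdkn2a, Ink4a start: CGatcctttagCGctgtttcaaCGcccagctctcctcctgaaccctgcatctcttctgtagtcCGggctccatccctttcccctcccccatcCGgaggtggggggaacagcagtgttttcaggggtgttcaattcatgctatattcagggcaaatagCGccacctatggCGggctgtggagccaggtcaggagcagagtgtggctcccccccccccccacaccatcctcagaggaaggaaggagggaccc
Cdkn2a, Arf start: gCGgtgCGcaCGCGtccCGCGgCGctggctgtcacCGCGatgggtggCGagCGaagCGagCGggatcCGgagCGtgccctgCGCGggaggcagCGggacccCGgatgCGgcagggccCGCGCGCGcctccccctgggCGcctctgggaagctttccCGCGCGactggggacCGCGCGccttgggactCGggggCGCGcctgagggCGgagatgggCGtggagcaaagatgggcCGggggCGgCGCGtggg
Cdkn2b: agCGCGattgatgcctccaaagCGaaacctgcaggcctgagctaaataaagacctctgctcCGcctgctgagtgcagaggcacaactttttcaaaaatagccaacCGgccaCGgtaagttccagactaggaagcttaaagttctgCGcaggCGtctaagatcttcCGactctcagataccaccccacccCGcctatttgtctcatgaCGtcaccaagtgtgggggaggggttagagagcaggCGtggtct

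The first of these sequences was identified as that of Ink4a by the study's own primers for ChIP-qPCR at the Ink4a promoter, which matched it without mismatch at bases 14 to 34 and, on the opposite strand, 53 to 74, counted from the 5′ end as printed. None of the 4 primers named for Arf matched any of the 3 sequences. The second sequence was called Arf only because it is the other Cdkn2a start. The promoters differed in base composition. The Arf sequence was 78.4% G or C with 40 CG dinucleotides, and 1.31% of the 32851 RefSeq promoter sequences of the same length held at least as many. The Ink4a sequence was 60% G or C with 7 CG, a count reached by 46.3% of promoters, and the Cdkn2b sequence was 53.6% G or C with 12 CG, reached by 33.5%. The median promoter had 52.4% G or C and 6 CG. Of 4 motifs searched on both strands, GGGCGG occurred at 2 places in the Arf sequence and in 32.7% of all promoters, and TGACGTCA once in the Cdkn2b sequence and in 1.55% of all. CACGTG (6.02% of promoters) and TATAAA (12.4%) were in none of the 3. None of these motifs is contained in another.

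In proliferating SVZ NSCs, H3K27me3 at the locus formed a pair of peaks. The first lay at chr4:88917750-88925626, was 7.88 kb wide and had a score of 819.91. The second lay at chr4:88926731-88929303, was 2.57 kb wide and had a score of 222.97. The score is the value that the peak caller MACS gave to a peak, where a higher score means stronger evidence, and it is used here only to rank peaks within a list. The wider peak was among the stronger ones, since 7.07% of the 9470 peaks of its list scored at least as high and 4.57% were at least as wide. For the narrower peak these shares were 20.6% and 32.7%. A gap of 1104 bp separated the peaks, and together they covered 10.5 kb, or 13.9%, of the window, all of it below the middle of the window.

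At 30 h of differentiation a single H3K27me3 peak covered both proliferating peaks and the gap between them. It lay at chr4:88906120-88938323 and was 32.2 kb wide, or 3.08 times the summed width of the proliferating peaks. It began 11.6 kb below the first proliferating peak and ended 9.02 kb above the last, so that 21.8 kb of it had no proliferating H3K27me3 peak. Its score was 3100, a value that 501 peaks of the list share and 18 exceed. Peaks at this shared value cannot be ranked among themselves by score. Whether the 18 above it are stronger is unknown. In width it ranked 105 of 15187 peaks at 30 h and 6 of the 1197 on chromosome 4. The top 36.7 kb of the window held no H3K27me3 peak in either list.

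**Figure D1:**
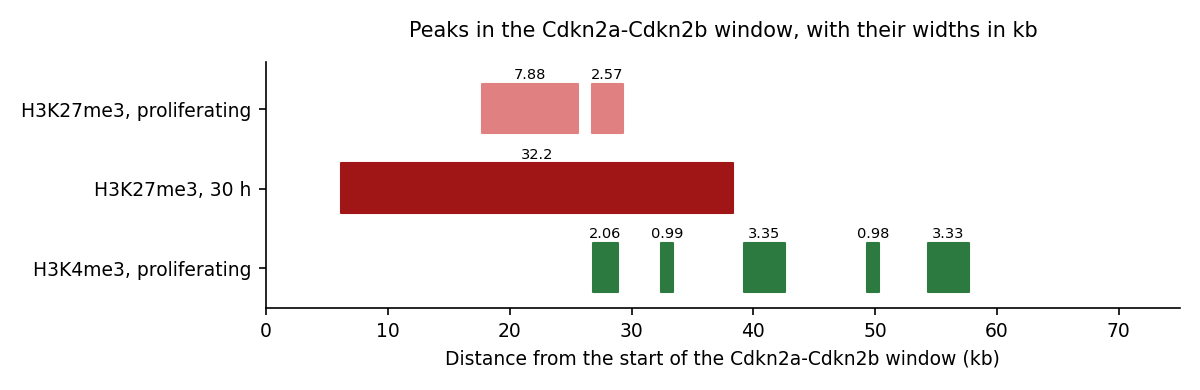
Peaks of the 3 lists (rows) in the window, by distance from its start in kb (x axis), drawn to scale with the width of each peak in kb above it and 1 library per row. The 30 h H3K27me3 peak of 32.2 kb spans both proliferating peaks and the first 2 of the 5 H3K4me3 peaks, and ends below the third.

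H3K4me3 in proliferating cultures was found in 5 peaks, which covered 10.7 kb or 14.3% of the window. From low to high coordinates, the first was chr4:88926822-88928883 (2.06 kb, score 1838.12). The second was chr4:88932446-88933433 (0.988 kb, score 397.41). The third was chr4:88939234-88942582 (3.35 kb, score 3100). Of these, the narrowest was also the weakest. The next was chr4:88949333-88950311 (0.979 kb, score 116.35). The last was chr4:88954330-88957662 (3.33 kb, score 3100). The third and the last were the widest and strongest of the locus, and 10.6% and 10.8% of the 18727 H3K4me3 peaks were at least as wide. Their score of 3100 is shared by 8402 peaks, and 46.1% of the list scored that high or higher, so 2 of 5 at this score was near the share in the whole list. The second and the next to last were narrow and weak, with 86.9% and 87.3% of the list at least as wide and 74.7% and 88.4% scoring at least as high. The first lay near the middle of its list, with 46.2% at least as wide and 56.9% scoring at least as high.

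The marks met over part of this stretch. The first H3K4me3 peak lay wholly within the narrower proliferating H3K27me3 peak, which began 91 bp before it and ended 420 bp after it. H3K4me3 thus covered 80.1% of that H3K27me3 peak, and none of the wider one. In proliferating cultures 1 of 5 H3K4me3 peaks was under H3K27me3, against 11.0% of all H3K4me3 peaks (95% Wilson interval 10.5 to 11.4%). At 30 h, H3K27me3 lay over 2 of the 5, against 14.3% (13.8 to 14.8%). The 5 peaks are too few to set either count apart from these shares. The second H3K4me3 peak was the one reached only at 30 h. It stood 3142 bp above the last proliferating H3K27me3 peak and 4890 bp inside the upper end of the 30 h peak. Of all H3K4me3 peaks, 4.12% were under H3K27me3 at 30 h only, 10.2% in both lists and 84.9% in neither.

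The upper 3 H3K4me3 peaks had no H3K27me3 over them at either time. The 30 h peak stopped 910 bp short of the third peak, and of the 16048 H3K4me3 peaks not under H3K27me3 at 30 h, 2.92% were that close to a 30 h peak or closer. Their median gap was 78.6 kb. The limit of 910 bp is the locus's own value, and most of the 16048 lie far from H3K27me3, so this share does not set the locus apart. Across the genome, 4.63% of the H3K4me3 peaks with a score of at least 3100 were under H3K27me3 at 30 h and 22.6% of those with lower scores. In proliferating cultures these shares were 2.62% and 18.1%. The 2 peaks at 3100 in the locus were uncovered and the 2 covered ones scored lower, as did the uncovered peak of score 116.35. In length, H3K4me3 shared 2.06 kb with H3K27me3 of proliferating cultures, which is 19.3% of the H3K4me3 in the window, and 3.05 kb, or 28.5%, with that of 30 h. Overlap of peaks is not evidence that single cells or alleles carried both marks. With the stronger 50% of each list the H3K4me3 peaks of score 1838.12, 397.41 and 116.35 dropped out, since the lowest score left was 2623.1, and the marks then met over 0 bp.

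Both proliferating H3K27me3 peaks lay under a 30 h peak, as did 61.3% of that list (60.3 to 62.3%). Among proliferating peaks scoring at least 819.91, 99.9% (669 of 670) lay under a 30 h peak, and among those scoring at least 222.97, 99.2% (1939 of 1955). Of the 30 h list, 30.7% (4666 of 15187) lay over at least 1 proliferating peak and 5.83% (5.47 to 6.21%) over at least 2, as at the locus. Of the 519 peaks with a score of at least 3100, which are 3.42% of the list, 60.5% lay over at least 2.

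How far the 30 h peak outreached the proliferating ones was compared with the 4666 peaks at 30 h that overlapped at least 1 proliferating peak. These had a median width of 5.48 kb, and their width was a median of 1.71 times their length under proliferating peaks. The ratio of 3.08 at the locus was reached by 17.2% of them, and by 11.4% of the 622 peaks over exactly 2 proliferating peaks. At their lower end the 4666 peaks reached a median of 0.758 kb beyond the proliferating peaks, and at their upper end 0.760 kb. A reach of 11.6 kb at the lower end was matched by 0.600% of them and of 9.02 kb at the upper end by 1.11%. Of the 622 peaks over exactly 2 proliferating peaks, 1.45% and 2.09% matched these reaches. Among the 518 with a score of at least 3100, like that of the locus, the shares were 3.28% and 4.25%. Of these 518, 20.3% were at least as wide as the peak of the locus. The peak at Cdkn2a and Cdkn2b was the only one to match both at once, but these limits are its own values. Any peak that no other outreaches at both ends is likewise alone at its own values, so this does not set the locus apart. This measure was chosen after the shape of the peak had been seen. The 30 h list covers 73.4 Mb against 29.2 Mb for proliferating cultures, and depth, which is unknown, can widen peaks. Its part in the result was not tested.

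**Figure D2:**
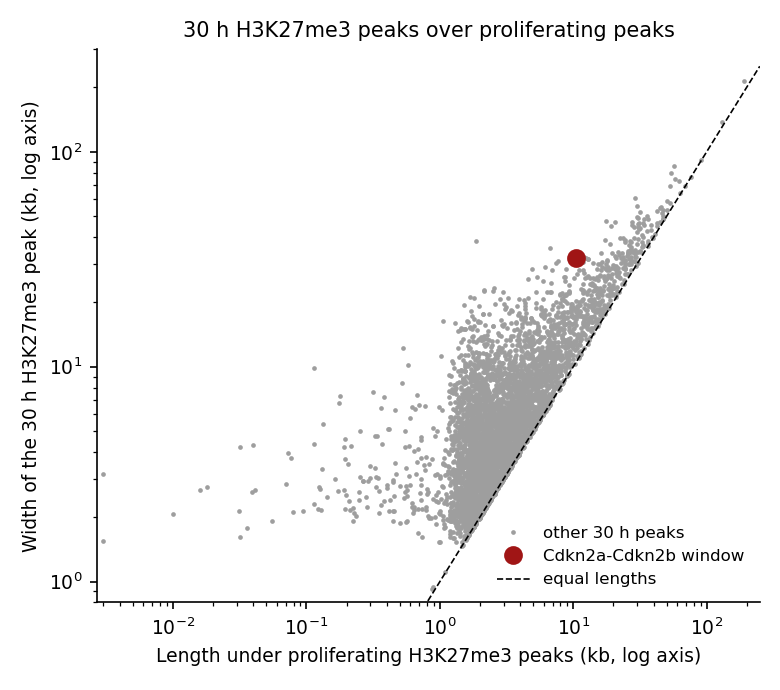
Width of each 30 h H3K27me3 peak over at least 1 proliferating peak (y axis, kb) against the length of it under proliferating H3K27me3 peaks (x axis, kb), both on log axes, with 1 point per peak and 1 library per time. The peak of the locus (large circle) is at 10.5 kb and 32.2 kb, above the dashed line of equal lengths, below which no peak can lie.

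**Figure D3:**
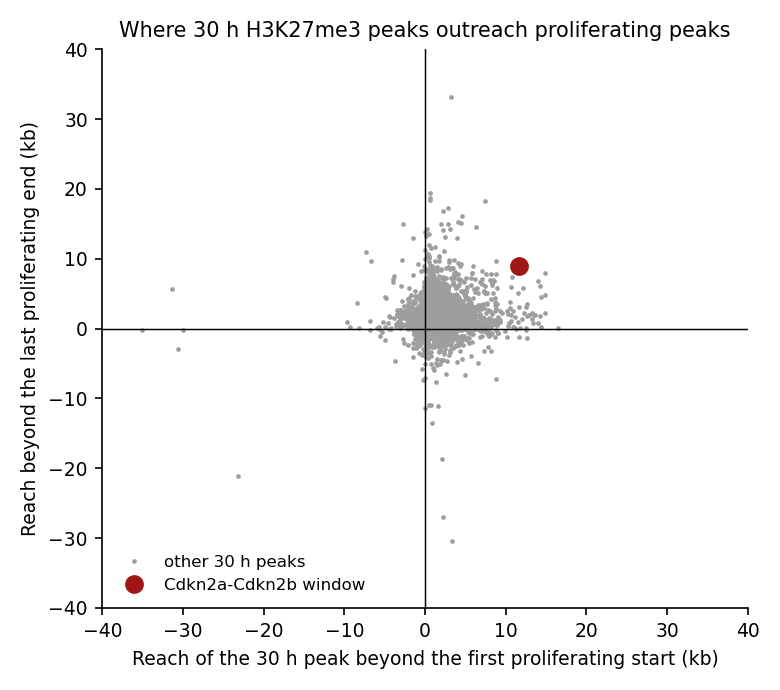
Reach of each 30 h H3K27me3 peak beyond the start of the first (x axis, kb) and beyond the end of the last (y axis, kb) proliferating peak under it, where negative values mean that the proliferating peak reached further, and 2 peaks lie outside the axes. The peak of the locus (large circle) is at 11.6 kb and 9.02 kb. No other peak is as far out on both axes, as holds for any peak at the outer edge judged by its own values.

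The covered length of the locus was set against all windows of its length laid end to end along the placed chromosomes other than Y. Of these 35188 windows, 17.8% held an H3K27me3 peak of proliferating cultures, 19.5% one of 30 h and 33.1% an H3K4me3 peak, and 7.47% held all 3, as the locus did. At least 10.5 kb of proliferating H3K27me3 was found in 1.63% of windows, at least 32.2 kb of H3K27me3 at 30 h in 1.28%, and at least 10.7 kb of H3K4me3 in 0.676%. Among windows holding any peak of the list in question, these shares were 9.14%, 6.60% and 2.04%. The locus was thus in the upper tail for each list, though less far out among marked windows. Its window was placed around the 2 genes and holds its peaks whole, while windows laid end to end can cut a peak at their borders. These shares can therefore understate how common such covered lengths are. At least 5 H3K4me3 peaks were found in 0.872% of windows. The gain of H3K27me3 at the locus between the lists was 21.8 kb. Among the 3672 windows with H3K27me3 in both lists the median gain was 5.56 kb, 10.6% gained at least 21.8 kb and 7.08% had less at 30 h. Of the 452 windows with at least as much H3K27me3 at 30 h as the locus, 98.2% also held a proliferating H3K27me3 peak and 58.6% an H3K4me3 peak, but 3.54% held 5 H3K4me3 peaks or more. Among the 105 peaks at 30 h at least as wide as that of the locus, the median held 1 H3K4me3 peak and 32.4% held none, against 2 at the locus, where H3K4me3 covered 9.47% of the peak (median of the 105, 3.61%).

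**Figure D4:**
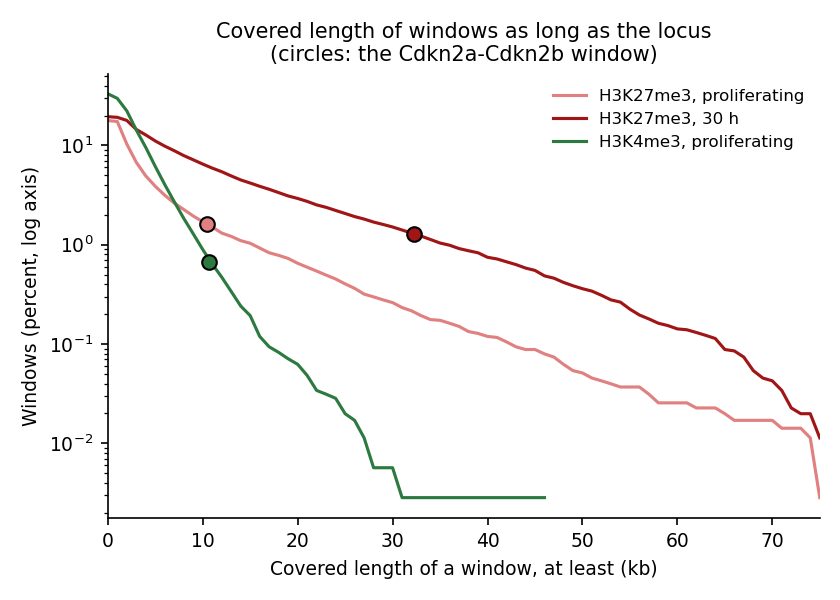
Share of windows as long as the locus (y axis, percent, log axis) in which a list covers at least the length on the x axis (kb, where 0 stands for at least 1 bp). Circles give the locus, at 1.63% for proliferating H3K27me3, 1.28% for H3K27me3 at 30 h and 0.676% for H3K4me3, with 1 library per line.

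The marked stretch stood alone. No list had a peak in the window of the same length on either side. Empty windows are common. Of all windows of this length, 17.8% held a proliferating H3K27me3 peak, 19.5% one of 30 h and 33.1% an H3K4me3 peak. How often marked windows have empty neighbours was not computed. The nearest H3K27me3 of proliferating cultures outside it lay 399 kb below, at chr4:88497851-88500625 (score 70.12), and 379 kb above, at chr4:89353884-89356714 (score 327.25). At 30 h the nearest H3K27me3 lay 316 kb below, at chr4:88577801-88583806 (score 318.13), and 378 kb above, at chr4:89353430-89359250 (score 827.85). The peaks above the window overlapped each other, so that this neighbour too was marked at both times. The nearest H3K4me3 was closer, 115 kb below at chr4:88782438-88784692 (score 3100) and 216 kb above at chr4:89190716-89192207 (score 717.24). All 8 peaks of the locus lay at least 6.12 kb inside the window, so moving its edges outward by 25 kb changed nothing.

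Within 1 Mb on each side, H3K27me3 of proliferating cultures had 8 peaks below and 2 above the window, none wider than 2.83 kb, and that of 30 h had 12 below and 2 above, none wider than 8.98 kb. The widest peak of the locus was therefore 2.78 times as wide as the widest neighbour in the proliferating list and 3.58 times at 30 h. H3K4me3 had 23 peaks below and 3 above. Of these 23, 15 lay in 2 rows of at least 3 peaks, where a row was ended by a step of 10 kb or more between the middles of neighbours. The nearer row held 12 peaks at chr4:88418861-88452679, 447 kb below the window, with middles 2.76 to 3.17 kb apart and scores between 966.76 and 1999.70. The other held 3 at chr4:88402471-88409831, with middles 2.94 to 3.02 kb apart, and a step of 10.2 kb led from it to the nearer row. The H3K4me3 peaks of the locus had no such spacing, with middles 5.09 to 8.91 kb apart. These rows were noticed after their values were seen.

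**Figure D5:**
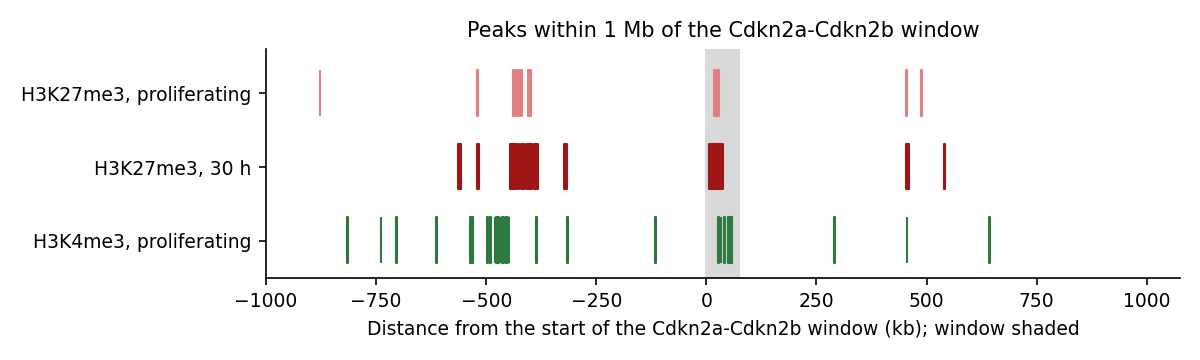
Peaks of the 3 lists (rows) within 1 Mb of the window (shaded), by distance from its start in kb (x axis), to scale with 1 library per row. Peaks nearer than the resolution of the plot run together. H3K27me3 in the window is flanked by at least 316 kb without H3K27me3 in either list.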

How the data were processed

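ChIP-seq for H3K27me3 and H3K4me3 in SVZ NSC cultures was analysed from 3 peak lists, 1 library each. The submitters' processing notes name Bowtie2 and mm9, and the authors called peaks with MACS, switching off its model and local lambda for H3K27me3. Its version and threshold, and whether input served as control, are not stated in the labels or the methods. Input DNA (3 libraries) was left out. The score in the deposited lists comes from the authors' run of MACS, with a lowest score of 50.01, 50.03 and 50.01. A score of 3100 is shared by 215, 501 and 8402 peaks of the lists, and 13, 18 and 225 peaks score higher. The same value recurs in all 3 lists, so it may not measure strength, and scores rank peaks only below it. Deposited starts were read as counted from 0 and are printed from 1. The lists hold no read counts, so depth is unknown. Gene positions in mm9 were not used, so the start sites of both genes and the lists of other cell cycle inhibitors, their partners and Polycomb members could not be evaluated.

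Overlaps of at least 1 bp were computed in pandas 2.3.3 and numpy 2.4.6 (Python 3.11.15), with intervals from scipy 1.17.1 and plots from matplotlib 3.10.9, and checked with bedtools 2.31.1. Tested on simulated data, the code gave the same values as counting single bases in 20 of 20 pairs of lists. Wilson intervals cover counting error only. No test between conditions was possible. Peaks were described by a fixed rule: every peak in the window and the nearest of each list on each side. The locus, its window and the measures were chosen with earlier results of these data known. Alternatives were another score threshold, equal list lengths, merging, wider edges, a stricter overlap and moved windows.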

Additional observations from a re-analysis of the deposited data

How the results depend on the processing

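The peak of H3K27me3 at 30 h kept its 32.2 kb, and the proliferating peaks stayed 2 in number, with the stronger 50% of each list and with 25 kb added on each side. Both outcomes were fixed in advance. The scores of these peaks were above the cuts of 154.76 at 30 h and 88.26 in proliferating cultures, and no other peak lay within 115 kb of the window. The numbers of peaks were also the same with at least 50% of a peak required in the window, since all of them lay wholly inside it. The 30 h peak also stayed when its list was cut to the 9470 or, at equal covered length, the 2196 highest-scoring peaks. This too was fixed, since its score of 3100 was above both cuts, at 111.22 and 723.93. These cuts keep the called edges of a peak, so they cannot show whether depth widened it. After joining peaks with gaps under 3 kb, the proliferating pair became 1 peak, and it and the length shared by both H3K27me3 lists were 11.6 kb. With the stronger 50%, H3K4me3, measured in proliferating cultures only, fell to 2 peaks and 6.68 kb. The length it shared with H3K27me3 fell to 0 kb for the proliferating list and 0 kb for the 30 h list. This was by construction, since 3 of the H3K4me3 peaks were below that threshold. The share of windows with a peak was then 9.35% for proliferating H3K27me3, 12.9% at 30 h and 20.8% for H3K4me3, and 14.8% at 30 h with equal numbers of peaks. Moving the windows by 50% of their length gave shares of 17.9%, 19.5% and 33.2%, against main shares of 17.8%, 19.5% and 33.1%. The moved windows hold the same peaks. The other 24 values tried were the same as the main ones. No paired analysis was possible because the results come from no test and each group has 1 library. Unknown depth limits every comparison between the lists.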

Other observations

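H3K27me3 met H3K4me3 in 19.5% of the proliferating peaks (1843 of 9470) and 16.0% of the 30 h peaks (2432 of 15187). At Cdkn2a and Cdkn2b it did so in 1 of 2 proliferating peaks and in the 30 h peak. The H3K4me3 peaks are those of proliferating cultures in each case, so the 30 h values compare marks of different times. Of the 3672 windows with H3K27me3 in both lists, 71.5% held H3K4me3, as the locus did. A 30 h peak over at least 2 H3K4me3 peaks, as here, was found in 259 of 15187 (1.71%). The median width of that list was 3229 bp, and a wider peak can span more H3K4me3 peaks. Among the 105 peaks at least as wide as that of the locus the median held 1, and the share holding at least 2 was not computed.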
